A study of Homo sapiens with 12 samples.

Results

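The 78 genes described here encode proteins of the mitochondrial ribosome and were chosen by name: a symbol that starts with MRPL or MRPS and goes on with a number and at most 1 letter A, B or C. They are 78 of the 38516 genes in the deposited table, 49 with MRPL names and 29 with MRPS names, on 21 chromosomes. They were measured by RNA sequencing in KYSE150 and KYSE510, which are established lines of human esophageal squamous carcinoma (ESCC) grown in RPMI-1640 with fetal bovine serum. Each line was sequenced as control cells and as cells with the long non-coding RNA gene HCP5 silenced, which gave 4 groups (KYSE150 control, KYSE150 silenced, KYSE510 control and KYSE510 silenced) of 3 libraries each. Library titles carry the letters sh with no further explanation, and the sequences of the control and silencing reagents are not given in the sources used here. The labels do not say whether replicates came from separate cultures, so p-values measure only the spread between these libraries, which may be technical.

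Mitochondria keep a small genome whose messages encode core subunits of the respiratory chain and of ATP synthase, and a dedicated ribosome translates them. Its RNAs come from the mitochondrial genome, whereas all of its proteins are encoded by nuclear genes, made in the cytosol and imported. The small subunit (MRPS proteins) holds the messenger RNA and reads its codons, and the large subunit (MRPL proteins) joins the amino acids and anchors the ribosome to the inner membrane. Some of these proteins descend from bacterial ribosomal proteins, and others exist only in mitochondria. By structure, 51 of the 78 genes belong to the large subunit, MRPS18A and MRPS30 among them despite their names, and 27 were counted in the small subunit. Bacterial counterparts are known for 45, and 33 were counted as specific to mitochondria. MRPS18A and MRPS18B were put among the 33, although they are paralogs of MRPS18C, which is among the 45. MRPS36 is among the 78 by name only, since its product is now assigned to the oxoglutarate dehydrogenase complex. It was still counted among the 27 genes of the small subunit and the 33 specific to mitochondria.

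The promoters are shown first because the motifs CCGGAAG and AAGATGGCG were more common among them than among tested genes. CCGGAAG was also not spread evenly over the genes that differed between the lines, both among members and among all tested genes. RefSeq windows on GRCh38.p14, each 300 bases long from 250 before to 50 after a transcription start, were matched for 69 of the 78 genes. The letters CCGGAAG, a core bound by ETS factors such as the GABP complex (a known regulator of genes for mitochondrial proteins), were searched on both strands. At least 1 window of 30 of the 69 genes (43.5%) held them, against 12.2% of all 27305 genes with a window and 22.5% of the 9560 tested genes with one. Of the 78 members, 77 lay above the median of tested genes in mean RPKM. No set of genes of like level was compared for either motif. The 250 bases before the start are given 5′ to 3′ for 3 genes that were lower in KYSE510 and hold the motif (MRPS31, MRPL54 and MRPL47), for MRPS34, the most abundant member, which holds it 3 times, and for 2 genes without it: MRPL55, the member that was highest in KYSE510 relative to KYSE150, and MRPS6, the member with the smallest p on silencing in KYSE150. Of other members with wide deficits in KYSE510, MRPL34 and MRPS18B had windows without CCGGAAG, and no window was matched for MRPS36. Capitals mark CCGGAAG or its reverse complement CTTCCGG.

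MRPS31 (chr13:40771191-40771440, minus strand): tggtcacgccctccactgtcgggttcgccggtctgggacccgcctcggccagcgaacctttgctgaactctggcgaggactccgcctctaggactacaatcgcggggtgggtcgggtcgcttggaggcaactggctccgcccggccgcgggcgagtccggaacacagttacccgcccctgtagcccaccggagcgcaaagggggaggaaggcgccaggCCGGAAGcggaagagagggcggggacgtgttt
MRPL54 (chr19:3762432-3762681, plus strand): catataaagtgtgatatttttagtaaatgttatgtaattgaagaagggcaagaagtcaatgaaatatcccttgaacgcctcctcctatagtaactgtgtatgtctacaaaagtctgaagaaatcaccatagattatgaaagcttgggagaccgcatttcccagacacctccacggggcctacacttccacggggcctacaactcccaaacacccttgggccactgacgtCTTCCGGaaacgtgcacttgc
MRPL47 (chr3:179604639-179604888, minus strand): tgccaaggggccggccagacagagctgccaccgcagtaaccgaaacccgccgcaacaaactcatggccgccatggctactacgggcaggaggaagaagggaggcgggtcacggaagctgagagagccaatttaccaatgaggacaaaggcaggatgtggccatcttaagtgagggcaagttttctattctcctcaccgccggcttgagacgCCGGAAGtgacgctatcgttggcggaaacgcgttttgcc
MRPS34 (chr16:1773135-1773384, minus strand): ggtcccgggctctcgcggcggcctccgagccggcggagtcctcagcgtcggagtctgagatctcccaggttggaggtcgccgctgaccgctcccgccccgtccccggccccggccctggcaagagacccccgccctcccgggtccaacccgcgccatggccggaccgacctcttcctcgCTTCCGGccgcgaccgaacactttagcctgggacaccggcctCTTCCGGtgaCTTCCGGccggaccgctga
MRPL55 (chr1:228109300-228109549, minus strand): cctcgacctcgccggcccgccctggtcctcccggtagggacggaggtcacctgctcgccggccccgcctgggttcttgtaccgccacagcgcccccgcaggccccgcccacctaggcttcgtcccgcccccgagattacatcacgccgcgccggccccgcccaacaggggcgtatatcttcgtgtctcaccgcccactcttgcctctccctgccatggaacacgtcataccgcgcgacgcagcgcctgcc
MRPS6 (chr21:34073328-34073577, plus strand): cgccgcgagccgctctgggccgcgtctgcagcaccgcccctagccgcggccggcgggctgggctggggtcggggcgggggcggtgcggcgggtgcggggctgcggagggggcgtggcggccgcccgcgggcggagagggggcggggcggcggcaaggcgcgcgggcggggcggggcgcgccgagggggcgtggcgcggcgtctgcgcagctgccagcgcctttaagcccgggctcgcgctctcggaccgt

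A match to these letters is a description of the window and does not show that a factor binds there. Of the 37 members with a window that were significantly lower in KYSE510 than in KYSE150 controls, 22 held CCGGAAG, against 29.8% of the tested genes that were lower. Of the 12 members that were higher, 2 held it, against 13.7% of the tested genes that were higher, and of the 20 that did not pass the test, 6 held it, against 22.3%. The YY1 motif AAGATGGCG was in a window of 13 members (18.8%), against 2.14% of all genes and 4.84% of tested genes. The other 3 searches were near the tested genes: the 10-base NRF1 consensus, which can contain the shorter NRF1 core, was in 9 members (13% against 13.5%), that core, CGCATGCG, in 3 (4.35% against 4.58%), and the E-box CACGTG, which MYC and other factors bind, in 9 (13% against 12.8%). MRPL46 and MRPS11 lie head to head on chromosome 15. The 5′ end of MRPL46 is at 88467419 on the minus strand, and that of MRPS11 is at 88467453 on the plus strand. Between the control lines MRPS11 was higher in KYSE510 by 0.46 (log2, adjusted p = 0.0028) while MRPL46 had a log2 difference of -0.19 (adjusted p = 0.28).

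All 78 genes were expressed in every library. Values are the deposited RPKM, read numbers divided by library size and by the summed length of the listed exons. Ranks between genes therefore depend in part on that length, which was 16393 bases for MRPL42 and 1097 for MRPS34. In KYSE150 control replicate 1, for instance, MRPL42 had 902 reads and 2.75 RPKM, and MRPL54 had 416 reads and 20.7 RPKM. The lowest value of any member in any library was 2.06 and the highest 311. The median member had a mean of 17.8 RPKM over the 12 libraries, against 3.47 for the 17823 genes tested, and 77 of the 78 lay above the median of tested genes. Together the members took 0.4146 to 0.5376% of the reads of a library, which is 90358 to 151614 reads out of 20035025 to 28202422.

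Genes whose products sit in the same particle differed widely in level, with means over the 12 libraries from 2.83 to 244.8 RPKM. MRPS34, a mitochondria-specific protein of the small subunit, was the most abundant, with 289, 311 and 272 RPKM in KYSE150 controls, 286, 271 and 218 after silencing, 226, 215 and 204 in KYSE510 controls and 219, 212 and 216 after silencing. MRPL51 followed with 126, 136 and 137 RPKM in KYSE150 controls and 77.5, 89.8 and 80.7 in KYSE510 controls. It shares 31.3% of its exon bases with another gene. MRPS34 and MRPL51 were the only members with a mean of at least 100 RPKM, and MRPS26, MRPL12 and MRPL17 completed the highest 5. MRPL12 encodes the flexible stalk protein that recruits translation factors. It had 85.7, 88.1 and 97.3 RPKM in KYSE150 controls and 67.9, 68.1 and 69.4 in KYSE510 controls, but 68.2% of its exon bases are also listed for another gene, so its reads are uncertain. At the other end 11 members had a mean under 10 RPKM, and the lowest 5 were MRPL42, MRPL23, MRPL55, MRPS30 and MRPL22. MRPL42 had 2.75, 2.71 and 2.93 RPKM in KYSE150 controls and 2.25, 2.86 and 2.80 in KYSE510 controls, so the lines overlapped. MRPL23 and MRPL22, which line the exit of the peptide tunnel, had 4.83 to 6.14 and 6.36 to 6.80 RPKM in KYSE150 controls.

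The wide difference in these data was between the lines. In controls, 54 of the 78 members (69.2%) differed at an adjusted p under 0.05 (limma on log2(RPKM + 0.5), Benjamini-Hochberg adjustment over all genes tested), and 62.0% of all tested genes did. The members leaned to lower values in KYSE510: 39 (50%) were lower there, against 33.7% of tested genes, and 15 (19.2%) were higher, against 28.3%. Their median log2 difference, KYSE510 minus KYSE150, was -0.28, beside -0.07 over all tested genes. The 3 libraries of a line all lay on one side of the other 3 for 58 members (74.4%; 64.0% of tested genes), and counting silenced cells too, all 6 libraries of a line did so for 47 members (60.3%; 50.9% of tested genes). Summed over the 78 genes, RPKM was 2402.4, 2386.6 and 2450 in KYSE150 controls and 2401.7, 2482.8 and 2310.6 after silencing, against 1938.2, 2017.1 and 1966.7 in KYSE510 controls and 1856.6, 1910.1 and 1888.5 after silencing. Every KYSE150 library had a higher sum than every KYSE510 library.

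The small subunit counted more lower than higher genes in KYSE510. Of 27, 17 were lower, 3 were higher (MRPS11, MRPS15 and MRPS21) and 7 did not pass the test, with a median log2 difference of -0.51. Of 51 large subunit genes, 22 were lower, 12 higher and 17 did not pass, with a median of -0.19. Split by origin, the 33 mitochondria-specific genes counted 22 lower and 3 higher (median -0.54), and the 45 with bacterial counterparts 17 lower and 12 higher (median -0.14). Over all tested genes, 33.7% were lower and 28.3% higher. The shares were 63.0 and 11.1% in the small subunit, and 43.1 and 23.5% in the large subunit. They were 66.7 and 9.09% for mitochondria-specific genes, and 37.8 and 26.7%, near all tested genes, for those with bacterial counterparts. These counts and shares describe the lists, and whether the lists differ was not tested.

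**Figure D1:**
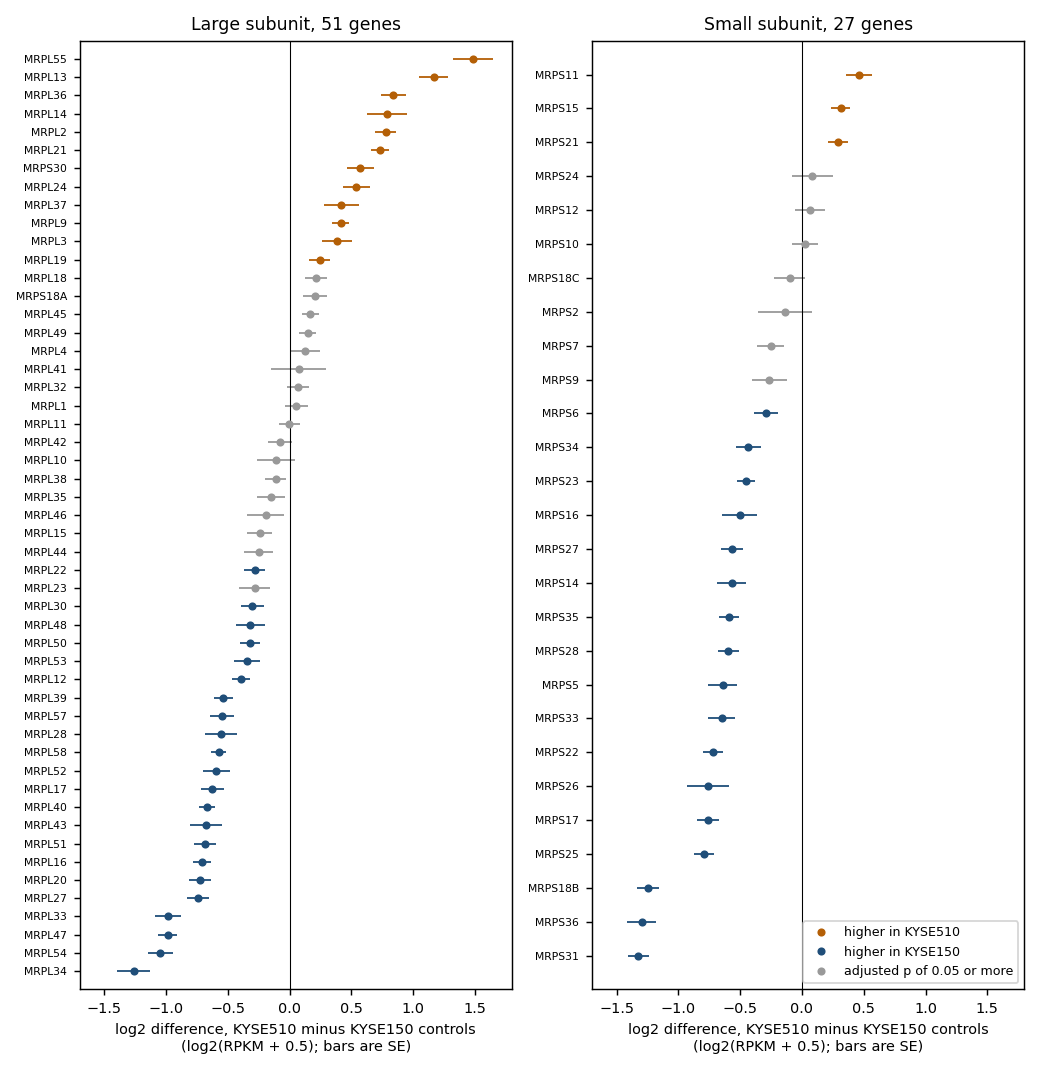
Log2 difference between control lines (KYSE510 minus KYSE150, on log2(RPKM + 0.5)) for each of the 78 genes, large subunit at left and small subunit at right, with SE from limma. Blue points mark the 39 genes lower in KYSE510, orange points the 15 higher and grey points the 24 with an adjusted p of 0.05 or more.

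MRPS31 had the widest deficit in KYSE510. It encodes a mitochondria-specific protein of the small subunit head, on chromosome 13 (40729135 to 40771173, minus strand, GRCh38). Its RPKM was 18.9, 22.8 and 18.4 in KYSE150 controls against 7.38, 7.75 and 7.85 in KYSE510 controls, a log2 difference of -1.32 (SE 0.084, adjusted p = 1.2e-07). Silenced cells kept the gap, at 16.8, 17.7 and 16.2 against 7.59, 7.31 and 7.55. MRPS31P4, a pseudogene of it, was lower in KYSE510 as well, at 15.9 ± 1.07 (SD, n = 3) and 6.38 ± 0.98 (SD, n = 3) RPKM in controls, so reads of the 2 copies may be split between them.

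MRPS36, the member by name only, had 15.7, 15.03 and 17.7 RPKM in KYSE150 controls and 5.60, 6.65 and 6.56 in KYSE510 controls (log2 difference -1.30, SE 0.12, adjusted p = 2.6e-06). MRPS18B had 97.4, 92.0 and 94.1 against 36.2, 43.3 and 39.5 (log2 difference -1.25, SE 0.089, adjusted p = 3.4e-07). The lines did not overlap for either gene. MRPS18B is a member of a trio of paralogs related to 1 bacterial protein, and the trio did not move together. MRPS18A, which sits in the large subunit and shares 47% of its exon bases with another gene, had a log2 difference of 0.20 (SE 0.10, adjusted p = 0.097), and MRPS18C, which shares 40.2% of its exon bases with another gene, of -0.10 (SE 0.13, adjusted p = 0.52). In RPKM, MRPS18B was the highest of the trio in all KYSE150 libraries, but in KYSE510 controls MRPS18A, at 45.1, 40.7 and 39.3, overlapped it, with the reads of its shared exons uncertain.

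Among large subunit genes that were lower in KYSE510, MRPL34 stood first, with 13.8, 13.1 and 17.98 RPKM in KYSE150 controls and 5.23, 6.36 and 6.12 in KYSE510 controls (log2 difference -1.26, SE 0.13, adjusted p = 7.9e-06). MRPL54, which is specific to mitochondria, had 20.7, 16.9 and 21.4 against 8.87, 10.3 and 8.59 (log2 difference -1.05, SE 0.10, adjusted p = 3.6e-06). MRPL47, at 78.002, 79.7 and 71.5 against 37.1, 38.3 and 39.3, had the smallest SE of these (log2 difference -0.99, SE 0.074, adjusted p = 5.1e-07). None of these 3 overlapped between lines in controls.

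MRPL55, which is specific to mitochondria, had the widest excess in KYSE510, and the genes next in size have bacterial counterparts. MRPL55 had 2.06, 2.53 and 3.39 RPKM in KYSE150 controls and 6.97, 8.29 and 9.62 in KYSE510 controls (log2 difference 1.49, SE 0.16, adjusted p = 1.1e-05). MRPL13 had 9.51, 9.91 and 7.09 against 17.9, 21.7 and 21.4 (log2 difference 1.16, SE 0.12, adjusted p = 6.6e-06). MRPL36 had 12.7, 15.2 and 14.9 against 23.4, 29.01 and 25.5 (log2 difference 0.84, SE 0.10, adjusted p = 2.6e-05). All 3 were separated by line in every library, silenced cells included. MRPL14, at the face that meets the small subunit, had 14.2, 12.5 and 18.5 against 23.3, 27.4 and 27.5 (log2 difference 0.79, SE 0.16, adjusted p = 0.0014). MRPL2, a protein near the peptidyl transferase center, had 11.1, 12.4 and 11.9 against 19.4, 21.9 and 20.5 (log2 difference 0.78, SE 0.083, adjusted p = 9.2e-06). MRPL21 had 22.8, 25.9 and 23.95 against 38.2, 42.4 and 40.9 (log2 difference 0.73, SE 0.071, adjusted p = 4.0e-06).

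**Figure D2:**
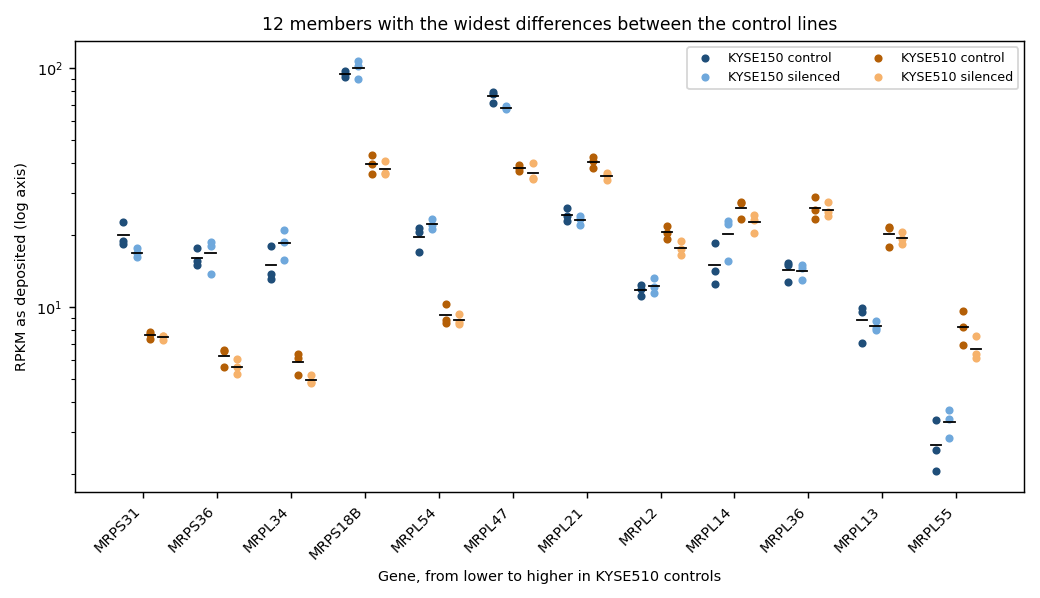
RPKM in each of the 12 libraries (points, log axis) for the 6 members that were lowest and the 6 that were highest in KYSE510 relative to KYSE150 controls, with the mean of each group as a black line. For MRPS31 the KYSE150 libraries lie at 16.2 or more and the KYSE510 libraries at 7.85 or less, and for MRPL55 the KYSE510 libraries lie at 6.12 or more and the KYSE150 libraries at 3.72 or less.

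These differences ran along with those of the surrounding genes. For the 75 members with at least 5 tested genes other than members within 1 Mb, the median log2 difference of those neighbours was set beside the member's own: Pearson's r was 0.634 and Spearman's rho 0.572, as a description, since all points share the same libraries and some members share neighbours. Of 14 higher members with such neighbours, 12 had a positive neighbour median, and of 37 lower members, 29 had a negative one. Of the 24 that did not pass the test, 10 had a positive one. Genes that share exon bases with a member were kept among its neighbours. The same comparison was not made for all tested genes, so these values do not show a trait particular to the members. Around MRPL55, 17 of 19 neighbours were higher in KYSE510 and none was lower (median 0.705). Around MRPL14, 24 of 31 were higher and none was lower (median 0.622). Around MRPS31, 8 of 13 were lower and none was higher (median -0.598), and around MRPS18B, 53 of 85 were lower and 15 higher (median -0.720). Other members went apart from their surroundings. MRPL33, with a log2 difference of -0.98, had a neighbour median of 0.076, and MRPL21, with 0.73, one of 0.085. Of the 1539 exon bases of MRPL33, 324 are also listed for BRE. MRPL23, with a log2 difference of -0.28 that did not pass the test (adjusted p = 0.066), lay among neighbours with a median of 0.976. Gene copy number was not measured, so its part in these differences was not tested.

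**Figure D3:**
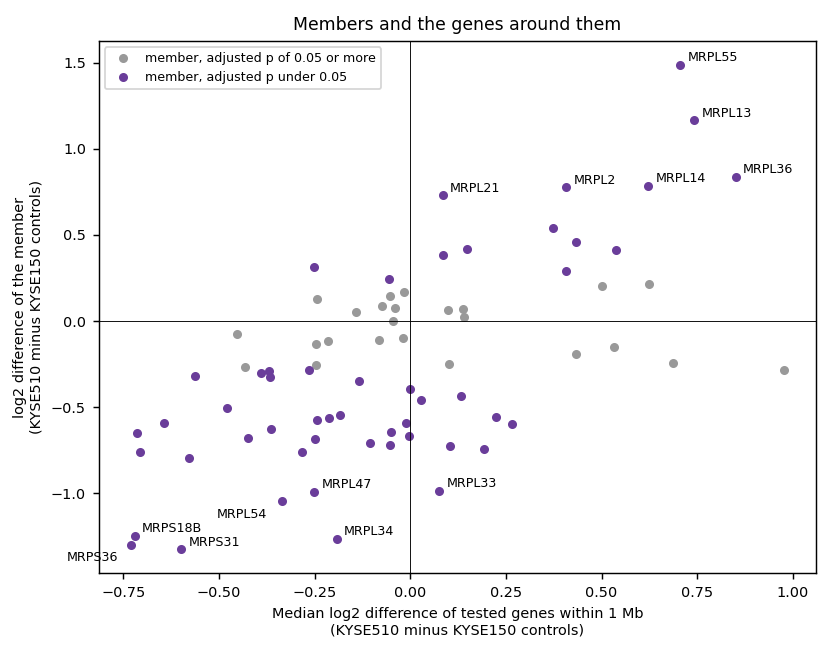
Log2 difference of each of 75 members between control lines (vertical) against the median log2 difference of the other tested genes within 1 Mb (horizontal). MRPL55, MRPL13 and MRPL36 lie at the upper right, MRPS31, MRPS36 and MRPS18B at the lower left, and MRPL33 lies low at a neighbour median of 0.076.

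The other genes of mitochondrial translation were read the same way. Beside these lists, 62.0% of all tested genes differed between control lines, with 33.7% lower in KYSE510 and 28.3% higher. Of the lists, 64.3% of translation factors, 71.4% of assembly and rRNA modification factors and 55.6% of regulators differed. Whether the lists differ from all tested genes was not tested. Of 5 mitoribosomal proteins that carry other names, all differed between control lines: DAP3, a GTP-binding protein of the small subunit, was higher in KYSE510 by 0.62 and PTCD3 by 0.46 (log2), while CHCHD1, GADD45GIP1 and AURKAIP1 were lower, with log2 differences of -0.68, -0.43 and -0.42. Of 14 translation factors tested, 9 were lower in KYSE510 and none was higher, led by the initiation factor MTIF3 (log2 difference -1.18) and the release factors MTRF1 (-1.05) and MTRF1L (-0.98). The abundant elongation factor TUFM had a log2 difference of -0.10 (adjusted p = 0.22). Of 21 assembly and rRNA modification factors, 11 were lower, with RPUSD4 at -1.21 and GTPBP10 at -0.999, and 4 were higher, with FASTKD2 at 0.71. The mitochondrial ribosomal RNAs were both lower, MT-RNR1 of the small subunit by a log2 difference of -1.38 and MT-RNR2 of the large subunit by -0.32. Their control means were 837 and 5214 RPKM in KYSE150 and 321 and 4181 in KYSE510. The part of RNA selection during library preparation in these values was not tested. Among 9 tested regulators of genes for mitochondrial proteins, MYC (log2 difference 3.14), ESRRA (0.49) and YY1 (0.45) were higher in KYSE510, and GABPA, the DNA-binding subunit of the GABP complex (-0.53), and PPRC1 (-0.28) were lower. NRF1 had a log2 difference of 0.004 (adjusted p = 0.97).

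HCP5, the silenced gene, had 0.779, 0.745 and 0.786 RPKM in KYSE150 controls and 0.315, 0.418 and 0.579 in the libraries labelled silenced, and 0.914, 1.85 and 1.40 against 0.505, 0.951 and 0.948 in KYSE510. It was lower on average in both lines, without overlap in KYSE150 and with overlap in KYSE510, and did not pass the test in either (adjusted p = 0.27 and 0.65). Averaged over the lines its log2 change was -0.49 (SE 0.14), with an adjusted p of 0.185 without and 0.0295 with the replicate number as a block. Without that block, silencing left no member past the threshold in either line. In KYSE150, 0 of 78 passed and 0.499% of all tested genes did. At an unadjusted p under 0.05 there were 14 members, 6 higher and 8 lower, which is 17.9% against 18.1% of all tested genes. In KYSE510, 0 of 78 passed, with 0.0393% of tested genes, and 2 members were under an unadjusted 0.05, both lower (2.56% against 6.35%). Averaged over the lines, 0 passed (0.539% of tested genes) and 9 were under an unadjusted 0.05 (11.5%, the same share as over all tested genes).

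Most members had small negative changes in KYSE510. The log2 change was below 0 for 62 of 78 and above 0 for 20.5%, beside 42.9% above 0 over all tested genes. The median was -0.067 beside -0.023 for all tested genes. The summed RPKM of the 3 silenced libraries, given above, lay below that of the 3 controls. Whether the members differ from all tested genes in this was not tested. In KYSE150 the changes went both ways, 44 above 0 (56.4%) and 34 below, and 66.1% of all tested genes were above 0. The members' median was 0.025 beside 0.083 for all tested genes. The split of the members depends on scaling: with each library centred on its median, 23 members were above 0 and 55 below, and the median over all tested genes moved to -0.047. Silenced and control libraries did not overlap for 13 members in KYSE150 (16.7%; 19.2% of tested genes) and for 9 in KYSE510 (11.5%; 12.1%), shares near the background.

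MRPS6 and MRPS15 were the members in which silenced and control libraries were apart in both lines, in the same direction. These are 2.56% of the members, beside 1.99% of tested genes, so the share is near the background. MRPS6, a small subunit protein with a bacterial counterpart, had 10.2, 10.9 and 13.1 RPKM in KYSE150 controls and 13.5, 14.4 and 15.2 after silencing. In KYSE510 it had 8.64, 9.29 and 9.55 in controls and 9.99, 9.98 and 11.1 after silencing. Each silenced library lay above every control of its line, and the mean log2 change of the lines was 0.25 (SE 0.067, adjusted p = 0.16; unadjusted p = 0.0036). Of the 4299 exon bases of MRPS6, 294 are also listed for AP000320.7 and 273 for SLC5A3. MRPS15 had 30.6, 31.8 and 35.6 in KYSE150 controls and 27.8, 30.6 and 29.2 after silencing, and in KYSE510 41.3, 42.4 and 38.4 in controls and 37.3, 37.8 and 34.6 after silencing. Its mean log2 change was -0.16 (SE 0.054, adjusted p = 0.29), and in KYSE150 the groups met almost at 30.6.

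Same-numbered control and silenced libraries deviated together in all 6 pairs, so the replicate number was also fitted as a block. In KYSE150 the block put 4 small subunit genes past the threshold, where 6.70% of all tested genes passed: MRPS35 (log2 change -0.28, adjusted p = 0.039), MRPS5 (-0.36, adjusted p = 0.041) and MRPS9 (-0.37, adjusted p = 0.048) were lower and MRPS6 (0.33, adjusted p = 0.035) was higher, each in 3 of 3 pairs. Averaged over the lines, MRPS6 alone passed with the block (adjusted p = 0.036), with 2.74% of tested genes. Without the block these genes had adjusted p of 0.14, 0.17, 0.22 and 0.13 in KYSE150. MRPS35 had 81.3, 75.6 and 65.8 RPKM in KYSE150 controls and 64.6, 58.8 and 59.1 after silencing. MRPS5 had 31.7, 38.6 and 27.2 in controls and 26.4, 26.2 and 22.3 after silencing, and MRPS9 had 48.7, 56.9 and 37.7 against 40.5, 37.6 and 31.8. In KYSE510 with the block, MRPS35 had a log2 change of -0.03 (adjusted p = 0.85), MRPS5 of 0.055 (adjusted p = 0.79) and MRPS9 of -0.002 (adjusted p = 0.998).

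**Figure D4:**
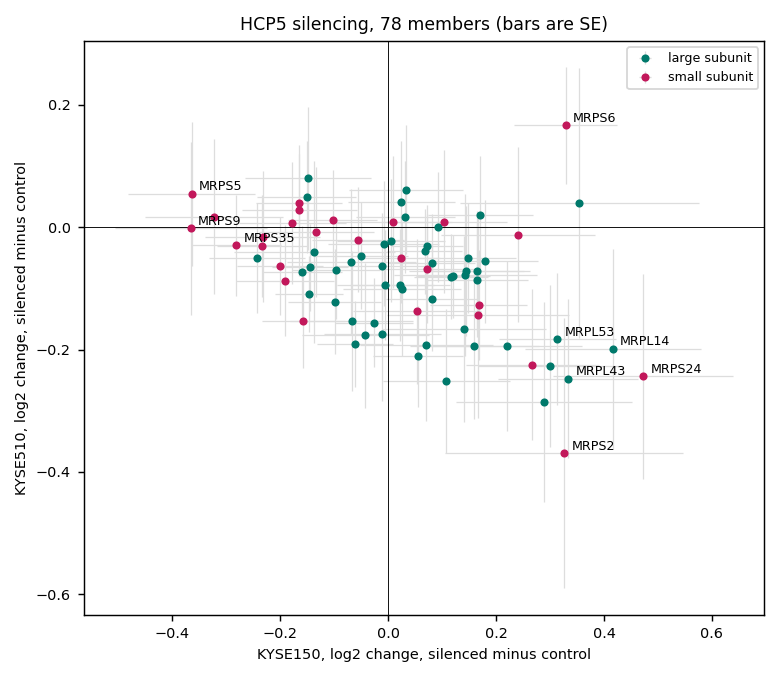
Log2 change on silencing (silenced minus control, log2(RPKM + 0.5)) of the 78 members in KYSE150 (horizontal) and KYSE510 (vertical), with SE from limma. Without the replicate block no member passed the threshold in either line, 62 lie below 0 in KYSE510, and MRPS6 is the member at the upper right.

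One library bears on the KYSE150 counts. KYSE150 controls had the widest spread of the 4 groups: the median coefficient of variation of the members was 10.1%, with 21 of 78 over 15%, against 6.92 to 7.53% in the other groups, which had 1 to 4 members over 15%. Without KYSE150 control replicate 3, 8 members passed in KYSE150, with 7.22% of all tested genes: MRPL43, MRPS6 and MRPS24 higher, and MRPS35, MRPS5, MRPS9, MRPS18C and MRPS33 lower. MRPS24, for instance, had 10.0, 7.21 and 12.1 RPKM in KYSE150 controls and 11.97, 14.9 and 13.7 after silencing, and MRPL41, which varied most, had 30.1, 19.0 and 41.3 in the controls alone.

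In KYSE150 control replicates 2 and 3 the deviations of the members ran along with the base composition of the transcripts. Over all tested genes those of replicate 1 did so too. For each gene the deviations of the 3 libraries of a group sum to 0, so the libraries are not separate observations. A trend in 1 library brings opposite trends in the others, and these values cannot show which library departs. Over the 78 members the deviation of KYSE150 control replicate 3 from its group had a Pearson's r of 0.467 with transcript GC content (Spearman's rho 0.444), and that of replicate 2 an r of -0.466 (rho -0.385), beside 0.349 and -0.234 over 11447 tested genes. The r over members was -0.147 for control replicate 1, beside -0.231 over tested genes. It was -0.0523, 0.188 and -0.0601 for silenced replicates 1, 2 and 3 of that line. In KYSE510 libraries it lay between -0.152 (control replicate 1) and 0.253 (control replicate 2), beside -0.0234 and -0.0788 over tested genes. The silencing change had an r with GC of 0.421 in KYSE150 and of -0.359 in KYSE510 (rho 0.422 and -0.378), beside 0.197 and -0.0666 over tested genes. Of the 19 members with the highest GC (55.5 to 71.9%), 15 were above 0 on silencing in KYSE150 and 2 in KYSE510. Of the 19 with the lowest (35.0 to 43.1%), 6 were above 0 in each line. These are descriptions over genes that share the same libraries, and the part of GC content in the silencing changes was not tested.

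**Figure D5:**
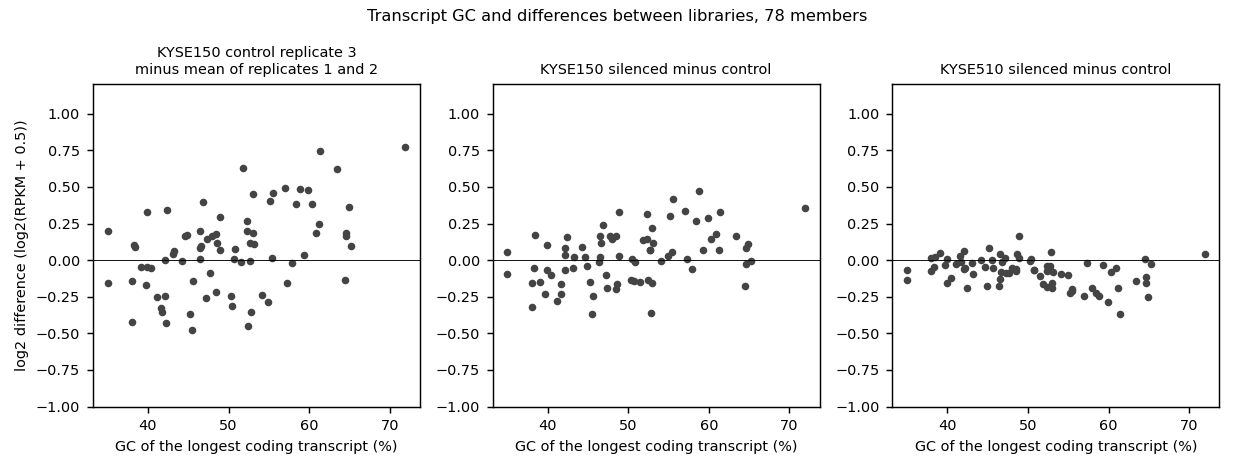
Log2 differences of the 78 members against the GC content of their longest coding transcript: KYSE150 control replicate 3 minus the mean of the other 2 controls (left), and silenced minus control in KYSE150 (middle) and KYSE510 (right). Members with high GC lie mostly above 0 in the left and middle panels and below 0 in the right panel.

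The silencing changes of the lines were compared directly, and 0 of 78 members differed between them at an adjusted p under 0.05 (0% of tested genes), with 11 under an unadjusted 0.05 (14.1% against 12.2% of tested genes). The lowest unadjusted p were those of MRPL53, MRPL43 and MRPS24, whose log2 changes were 0.31, 0.33 and 0.47 in KYSE150 and -0.18, -0.25 and -0.24 in KYSE510 (adjusted p of the difference 0.39 for each). These 3 genes share 45.2, 36.9 and 23.2% of their exon bases with other genes in the table. None of the genes of the other mitochondrial translation lists passed in either line on silencing. With the block, the assembly factor MTERF4 was lower in KYSE150 (log2 change -0.36, adjusted p = 0.040), and TFAM, which packages and transcribes mitochondrial DNA, and MYC were higher (0.38 and 0.27, adjusted p = 0.029 and 0.044).

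MRPS18B is the member nearest to HCP5, 0.774 Mb away on chromosome 6. Its log2 change on silencing was 0.07 (SE 0.089, adjusted p = 0.70) in KYSE150 and -0.07 (SE 0.089, adjusted p = 0.96) in KYSE510. All 8 epithelial markers were expressed in both lines, the squamous ones (KRT5, KRT14, KRT6A, KRT17, TP63 and DSG3) and the general ones (EPCAM and CDH1). TP63 was higher on silencing over the mean of lines (log2 change 0.32, adjusted p = 0.048), and with the block KRT5, KRT14, KRT6A, KRT17, TP63 and DSG3 were higher in KYSE150, with KRT14 at 2.09 (adjusted p = 0.0079) and also higher in KYSE510 (1.53, adjusted p = 0.039). Over the mean of lines all of these but DSG3 passed with the block. Their part in the members' changes was not tested. Of the markers of other cell types, PTPRC, PECAM1, VWF, DCN and PDGFRB had means of at most 0.023 RPKM in controls. CD3E had 0.137 RPKM in KYSE150 controls, COL3A1 0.0891 and COL1A1 0.628 in KYSE510 controls, CDH5 1.55 in KYSE510 controls and CD68 37.5 in KYSE150 controls. Of the 78 members, 40 share at least some exon bases with another gene, and 24 have pseudogenes in the table, 36 in all, of which 29 were under 1 RPKM in every library.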

How the data were processed

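Total RNA came from TRIzol extraction and went into standard Illumina libraries, per the labels' protocols. The authors deposited 1 table of RPKM for 12 libraries with exon positions, strand and summed exon length. HISAT2, DESeq and GRCh38 are named in the submitters' processing notes with no role; use of strand and filters are not given in the sources used here. RPKM times length gave whole reads (within 0.05) for 100% of values, and 20035025 to 28202422 reads per library. Genes with at least 0.5 RPKM in at least 3 libraries (17823 of 38516; 78 of 78 members) were tested with limma 3.58.1 in R 4.3.3 on log2(RPKM + 0.5), with 4 group means, a mean-variance trend, 8 residual degrees of freedom, two-sided tests and Benjamini-Hochberg adjustment (threshold 0.05). Fold changes on that scale understate those of low genes. Same-numbered libraries correlated in their deviations from group means in all 6 pairs (0.147 to 0.415), so a fit with a replicate block was made and is printed where it changed a call on a member or a printed list; KYSE150 control replicate 2 correlated slightly more with silenced replicate 1 (0.184) than with silenced replicate 2 (0.147).

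Named members were, by rule, the 5 highest and lowest, the 6 most different between lines in each direction, those past the threshold or with the smallest p on silencing, the MRPS18 paralogs and members on regions of interest; others named were chosen after their values were seen. Members and lists were chosen with earlier results of these data known. Alternatives were pseudocount 1, no filter, median centring, quantile normalization, no trend, the 6 libraries of a comparison alone, voom on recovered reads, the block and leaving out each library; for HCP5 the same alternatives were chosen after seeing the data. Transcript GC content came from GENCODE 29. The scripts were tested on simulated data.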

Additional observations from a re-analysis of the deposited data

How the results depend on the processing

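The count of 54 members that differed between control lines ranged from 49 to 58 over 19 alternatives, 46 of the 54 passed in every one, and none changed sign. The 8 that lost the call in at least 1 were MRPL3, MRPL19, MRPL22, MRPL30, MRPL37, MRPL48, MRPL53 and MRPS6. MRPL22 lost it without KYSE510 control replicate 3 (adjusted p = 0.053). On silencing, the replicate block gave 4 members in KYSE150 and 1 over the mean of lines. In KYSE150 it also gave 1 gene of the other mitochondrial translation lists and 2 regulators. It changed no other count of members or of these lists. Leaving out each library gave 0 to 8 members in KYSE150, 0 to 1 over the mean of lines and 0 to 1 gene of the other lists in KYSE150. Regulators were not included in these lists. The highest counts were without KYSE150 control replicate 3. With median centring the members' median log2 change was -0.1049 in KYSE150, and the median difference between the lines' changes was 0.0511 (-0.0174 with quantile normalization), against -0.1044 without centring. Values near 0 reversed for MRPL33 on silencing in KYSE510 (-1e-04 without KYSE510 silenced replicate 2, and up to 0.1395 leaving out others) and, between control lines, for MRPL42 (0.0152 without KYSE510 control replicate 1, down to -0.1294 leaving out others) and MRPS18C (0.0028 without KYSE150 control replicate 2, down to -0.2401 leaving out others); the cause was not tested. With 3 libraries a group, small changes cannot be told from replicate spread: SE of the silencing changes reached 0.22 for MRPS2 and MRPL41.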
